A study of Mus musculus with 30 samples.

Results

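The bone morphogenetic protein (BMP) ligands described here are Bmp1, Bmp2, Bmp3, Bmp4, Bmp5, Bmp6, Bmp7 and Gdf10. These 8 genes were chosen by name from the 32386 gene symbols of the deposited transcript tables. The choice was made with earlier results of these data known, and other BMP and GDF ligands are counted separately below. The 8 genes were followed across 10 stromal populations sorted from mouse intestine, with 3 RNA sequencing libraries per population and 30 libraries in all. The animals were untreated adult mice of strain C57BL6/Nrj aged 8 to 10 weeks, and the lamina propria of the small intestine and of the colon was the source tissue. Per the labels the intestines of 3 mice were used, and per the publication the gates of both tissues were sorted from the same animals, while the mouse behind each library was not given in the sources used here. Before the positive gates, EpCAM+, CD31+, BP3+ and NCAMhi cells, lineage-positive cells and dead cells were removed, and libraries were made from amplified cDNA with an Ovation Ultralow kit.

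Pericytes were sorted in both tissues as PDGFRa-ESAM-1+PDPN- cells. Smooth muscle cells (SMC) were sorted in the small intestine as PDGFRa-ESAM-1+PDPN+ cells and have no colonic library. The small intestinal fibroblasts (FB) were an ESAM-1-PDGFRaintCD34+ gate, called CD34+ FB here, which holds both Igfbp5+ and CD81+ FB, an ESAM-1-PDGFRaintCD34- gate of Fgfr2+ FB, and an ESAM-1-PDGFRahiCD34- gate of PDGFRahi FB. In the colon the gates were ESAM-1-PDPNintCD34+CD90- for CD81+ FB, ESAM-1-CD34+PDPNhiCD90+ for CD90+ FB, ESAM-1-PDPNhiCD34+CD90- for Fgfr2+ FB and ESAM-1-PDPN+CD34- for PDGFRahi FB. Fgfr2+ FB were therefore CD34- cells in the small intestine and CD34+ cells in the colon, which limits them as a matched pair between the tissues. PDGFRahi FB were gated on PDGFRa in the small intestine and on PDPN in the colon, which limits them likewise.

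BMPs are secreted dimers of the TGF-beta superfamily that bind type I and type II serine/threonine kinase receptors and signal through SMAD1, SMAD5 and SMAD9 with SMAD4, while secreted antagonists such as noggin, gremlin and chordin bind the ligands and block them. In the intestine BMP signalling restrains stem cell activity at the crypt base and promotes differentiation along the crypt to villus or crypt to surface axis, and stromal cells supply both ligands and antagonists. Bmp1 shares the name only, since it encodes an astacin metalloproteinase that cleaves procollagen C-propeptides and chordin, and Gdf10 is also known as BMP3b.

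The libraries held between 2245052 and 19096945 estimated counts, with a median of 9601683. Depth was between 6185421 and 9075187 in small intestinal pericytes, 8866828 and 13507159 in SMC, 9432531 and 11930055 in CD34+ FB, 2245052 and 15098412 in small intestinal Fgfr2+ FB, and 7327358 and 18148945 in small intestinal PDGFRahi FB. It was between 9225411 and 13866610 in colonic pericytes, 13102446 and 18710840 in CD81+ FB, 14456220 and 19096945 in CD90+ FB, 8740291 and 9785938 in colonic Fgfr2+ FB, and 6865683 and 7248567 in colonic PDGFRahi FB. All 8 members passed the filter on low counts. Levels below are CPM, estimated counts scaled to library size with TMM factors, and are given for replicates 1, 2 and 3 in that order. Overlap compares the ranges of 3 libraries each and is no test, since an exact test of 3 against 3 gives no p below 0.1. The share of all genes without overlap is not given here.

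The labels were checked against the markers behind the gates. Pdgfra stood at 6205, 6851 and 6489 CPM in small intestinal and 2388, 2397 and 2545 CPM in colonic PDGFRahi FB. Fgfr2 stood at 1468, 1981 and 1488 CPM in small intestinal Fgfr2+ FB and at 503, 459 and 457 CPM in colonic Fgfr2+ FB, where CD90+ FB with 324, 441 and 333 CPM came close. SMC of the small intestine held 450, 339 and 205 CPM of Fgfr2. Thy1, which encodes CD90, reached 255, 175 and 159 CPM in CD90+ FB and 120, 117 and 58.4 CPM in CD81+ FB, which were sorted as CD90-. It stood at 119.6, 426 and 118 CPM in small intestinal and 47.4, 138 and 241 CPM in colonic pericytes, both overlapping with CD90+ FB. Cd34 stood at 679.6, 648 and 558 CPM in CD34+ FB, and Cd81 at 388, 456 and 273 CPM in CD81+ FB against 224, 209 and 171 CPM in colonic pericytes. A list of 7 pericyte markers, led by Rgs5, summed to 52744, 33816 and 43809 CPM in small intestinal and 38150.3, 53240.1 and 33558 CPM in colonic pericytes. The sum of 6 smooth muscle markers, led by Myh11, was 21376, 17394 and 20849.7 CPM in SMC and also reached 10388, 11466 and 11415 CPM in colonic pericytes. None of the defining markers was absent from its own gate.

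Some libraries stood apart from the others of their population. Bmp2 was 341, 4.67 and 21.4 CPM in small intestinal pericytes, so that replicate 1 lay far above the other libraries of that gate. The same library had the highest sum of 5 immune markers, with 204, 4.92 and 24.1 CPM over the 3 small intestinal pericyte libraries, where Cd79a was the most abundant gene and Cd52 and Tyrobp were at 0. The part of immune cells in the Bmp2 level was not tested, and Bmp2 differences that rest on this library are given with and without it. Replicate 1 of CD81+ FB held the highest Bmp3, Bmp4, Bmp5, Bmp6 and Bmp7 of its gate. Replicate 3 of small intestinal Fgfr2+ FB was the shallowest library. The most abundant transcript took between 14.8 and 55.9% of the TPM of a library. In small intestinal PDGFRahi FB it took 49.2, 51.1 and 14.8% over replicates 1, 2 and 3. Replicate 3 of that gate held its lowest Bmp1, Bmp3, Bmp4, Bmp6 and Bmp7 and its highest Bmp2 and Bmp5. The part of this transcript share in the levels was not tested. Pearson correlation of log2 CPM between replicates was lowest in pericytes, between 0.723 and 0.804 in the small intestine and between 0.790 and 0.817 in the colon.

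Among the BMP2/4 group, Bmp2 (ENSMUSG00000027358.6, GRCm38 chr2:133552159-133562885, + strand) encodes a ligand of the BMP receptors BMPR1A and BMPR2. Its level was 478, 507 and 547 CPM in colonic PDGFRahi FB and 192, 145 and 210.4 CPM in small intestinal PDGFRahi FB. The colonic PDGFRahi libraries were above every other library of the 30, and the small intestinal ones overlapped with the small intestinal pericytes alone. Bmp2 stood at 109, 96.3 and 111 CPM in CD34+ FB and at 23.5, 134 and 108 CPM in colonic pericytes, where replicate 1 was the low library. In the other populations the Bmp2 means ran from 77.4 ± 13.1 CPM (SD, n = 3) in colonic Fgfr2+ FB through CD81+ FB, CD90+ FB and SMC to 30.8 ± 22.1 CPM in small intestinal Fgfr2+ FB. In that order of the 10 means, 8 of 9 neighbouring populations overlapped, and colonic against small intestinal PDGFRahi FB was the pair that did not.

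Bmp4 (ENSMUSG00000021835.15, GRCm38 chr14:46383520-46390669, - strand), the closest relative of Bmp2, stood at 2099, 1959 and 2321 CPM in colonic PDGFRahi FB, at 1526, 2045 and 2163 CPM in colonic Fgfr2+ FB and at 1654, 1960.3 and 1651 CPM in CD90+ FB. These 3 colonic populations overlapped with each neighbour in the order of means. Bmp4 levels were 1897, 1024 and 851 CPM in small intestinal Fgfr2+ FB and 1587, 997 and 548 CPM in CD81+ FB, with replicate 1 the highest library of both gates. Bmp4 stood at 997, 1023 and 959.6 CPM in CD34+ FB, at 919, 909 and 629.8 CPM in small intestinal PDGFRahi FB and at 591, 586 and 757 CPM in SMC. Pericytes were far below, with 26.3, 16.8 and 107 CPM in the colon and 6.64, 56.5 and 21.0 CPM in the small intestine, and no pericyte library reached any library of the other 8 populations. The order of the 10 Bmp4 means had 7 of 9 neighbouring pairs overlapping, and CD34+ FB against small intestinal PDGFRahi FB and SMC against colonic pericytes were the pairs that did not.

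In the BMP5/6/7 group, Bmp5 (ENSMUSG00000032179.7, GRCm38 chr9:75775364-75900310, + strand) encodes a ligand known from the short ear mouse. Bmp5 was 2411, 2621 and 2194 CPM in colonic PDGFRahi FB and 2162, 2393 and 2635 CPM in small intestinal PDGFRahi FB. These libraries overlapped between the tissues and lay above all 24 libraries of the other populations. Bmp5 levels were 665, 676 and 520.2 CPM in colonic Fgfr2+ FB, 354, 495 and 387 CPM in CD90+ FB, 447, 392 and 377 CPM in the Fgfr2+ FB of the small intestine and 340.4, 389 and 239 CPM in SMC. Colonic Fgfr2+ FB did not overlap with CD90+ FB, which overlapped with small intestinal Fgfr2+ FB, and these with SMC. Bmp5 stood at 109, 141 and 123 CPM in colonic pericytes, 110.0, 111 and 90.6 CPM in CD34+ FB, 165, 34.0 and 34.9 CPM in CD81+ FB and 42.4, 11.4 and 36.9 CPM in small intestinal pericytes. Neighbours overlapped throughout these 4 lowest populations.

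Bmp7 (ENSMUSG00000008999.7, GRCm38 chr2:172868012-172940321, - strand), a ligand that binds the type I receptor ACVR1 as well as BMPR1A and BMPR1B, was 1009, 1075 and 621 CPM in small intestinal PDGFRahi FB and 674, 649.9 and 646 CPM in colonic PDGFRahi FB. The ranges of the tissues overlapped, since replicate 3 of the small intestine was the lowest of the 6 libraries. Fgfr2+ FB came next, with 169, 65.7 and 46.7 CPM in the small intestine and 89.6, 61.8 and 56.9 CPM in the colon, and did not reach the PDGFRahi libraries. Bmp7 in CD90+ FB was 42.5, 49.3 and 46.9 CPM, and the 5 lowest means ran from 39.2 ± 15.8 CPM (SD, n = 3) in SMC to 12.7 ± 1.02 CPM in CD34+ FB.

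Bmp6 (ENSMUSG00000039004.6, GRCm38 chr13:38345107-38500302, + strand), a ligand also known for its induction of hepcidin in the liver, had another order. Its level was 446, 377 and 181 CPM in CD81+ FB, 353, 262 and 199 CPM in CD90+ FB and 209, 235 and 195 CPM in colonic Fgfr2+ FB. The ranges overlapped along this order, and CD90+ FB had the highest mean without scaling factors. Bmp6 stood at 162, 164 and 177 CPM in CD34+ FB, 168, 209.9 and 79.5 CPM in small intestinal PDGFRahi FB, 65.2, 76.8 and 75.3 CPM in colonic PDGFRahi FB and 68.4, 57.4 and 28.3 CPM in the Fgfr2+ FB of the small intestine. CD34+ FB overlapped with small intestinal PDGFRahi FB, and colonic PDGFRahi FB overlapped with small intestinal Fgfr2+ FB. Bmp6 was 2.26, 20.4 and 19.7 CPM in colonic pericytes, 19.2, 19.4 and 1.65 CPM in SMC and 0.214, 0.505 and 2.09 CPM in small intestinal pericytes, and each of these libraries was below every FB library.

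In the BMP3 group, whose ligands are divergent and act largely through activin type II receptors, Bmp3 (ENSMUSG00000029335.5, GRCm38 chr5:98854415-98884396, + strand) stood at 1092, 1008 and 964 CPM in small intestinal PDGFRahi FB and at 589, 768 and 607 CPM in colonic PDGFRahi FB. The small intestinal PDGFRahi libraries were all above the colonic ones, and the colonic ones were above all other libraries. Bmp3 was 85.5, 43.8 and 83.6 CPM in small intestinal Fgfr2+ FB and 74.2, 12.2 and 31.1 CPM in CD81+ FB. From there to colonic pericytes, with the lowest mean of 10.9 ± 5.11 CPM (SD, n = 3), every neighbouring pair overlapped.

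Gdf10 (ENSMUSG00000021943.7, GRCm38 chr14:33923587-33937983, + strand) was the least abundant member, and 16 of the 30 libraries held no count of it, which allows between 0.169 and 0.643 CPM in such a library. This limit covers counting error only. Its level was 6.63, 17.3 and 32.4 CPM in CD81+ FB, 0.0473, 6.77 and 12.1 CPM in CD90+ FB and 0, 2.93 and 15.6 CPM in colonic Fgfr2+ FB. Gdf10 was 0, 2.41 and 9.13 CPM in SMC, 1.05, 2.61 and 0.537 CPM in CD34+ FB and 0, 0 and 2.76 CPM in the Fgfr2+ FB of the small intestine. It was at 0 in all libraries of both pericyte and both PDGFRahi populations, and every neighbouring pair in the order of means overlapped.

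Bmp1 (ENSMUSG00000022098.10, GRCm38 chr14:70474558-70520234, - strand), the procollagen C-proteinase, was 238, 354 and 182 CPM in CD81+ FB and 242, 195 and 208 CPM in CD34+ FB. These overlapped with each other and were above all libraries of the other populations except replicate 1 of small intestinal PDGFRahi FB, which was within the range of CD81+ FB. Bmp1 stood at 185, 141 and 103 CPM in small intestinal and 64.1, 49.7 and 106 CPM in colonic PDGFRahi FB. The lowest means were 52.5 ± 15.0 CPM (SD, n = 3) in small intestinal and 30 ± 23.5 CPM in colonic pericytes, and 8 of 9 neighbouring pairs of the Bmp1 order overlapped. The ratio of the highest to the lowest mean was 8.59 for Bmp1 against between 16.6 and 358 for the other members with a mean above 0 in every population.

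**Figure D1:**
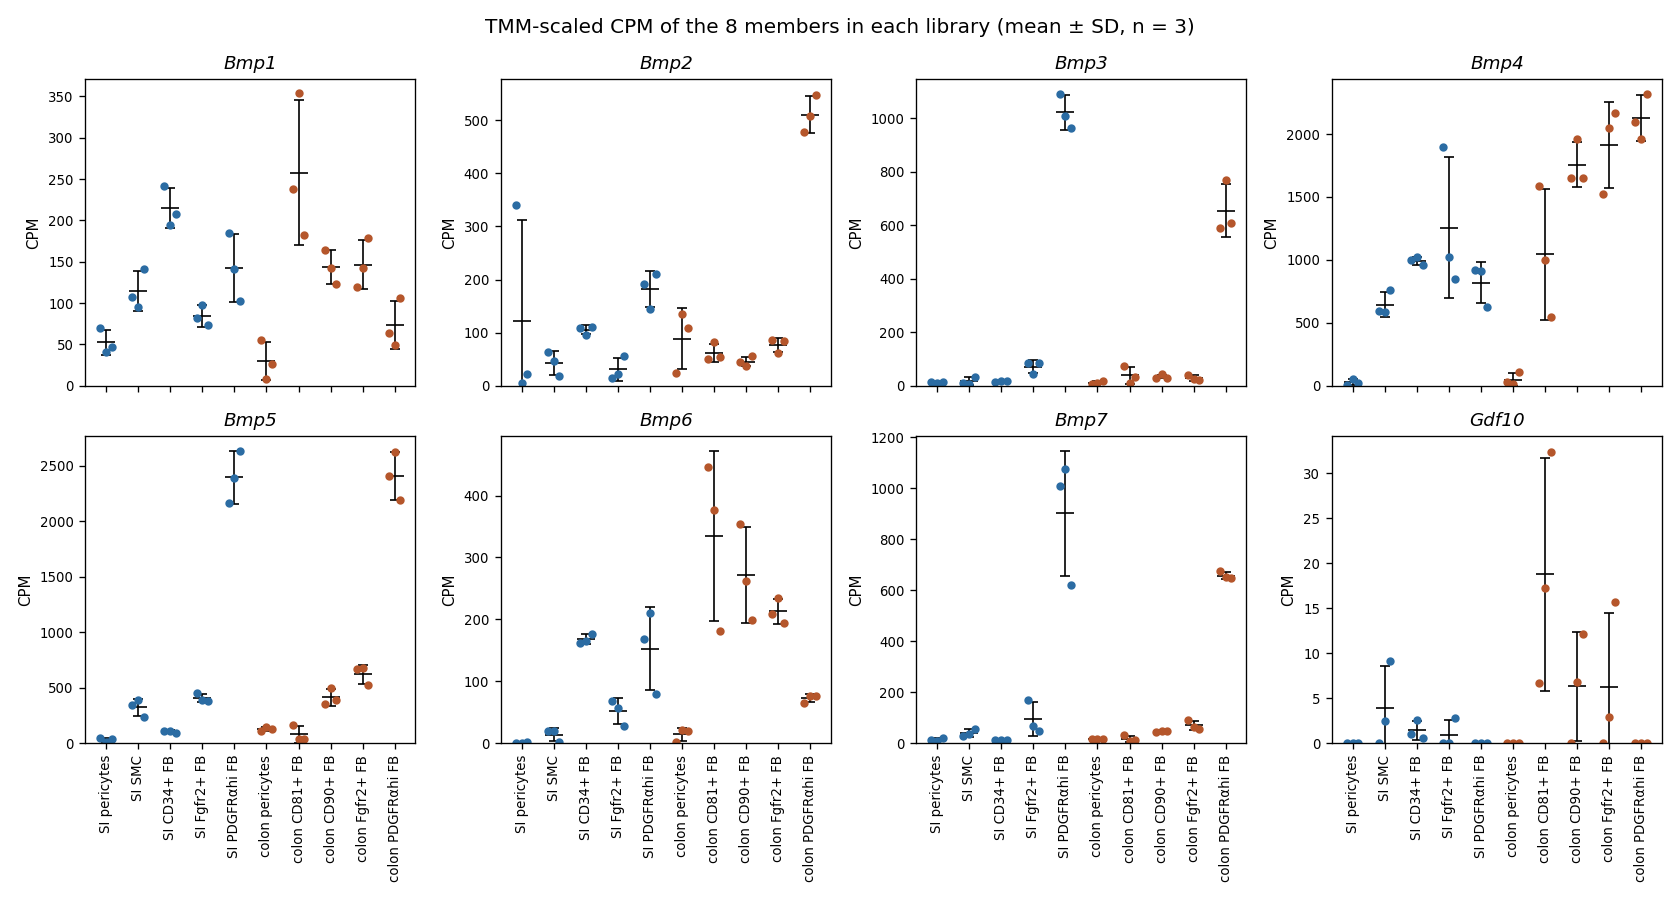
Level of each of the 8 members in CPM on a linear axis from 0, by sorted population, with 1 point per library and the mean and SD of 3 libraries. Bmp3, Bmp5 and Bmp7 stood highest in the PDGFRahi FB of both tissues, and Gdf10 was at 0 in PDGFRahi FB and pericytes.

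Each difference below is a log2 ratio, tested with edgeR's quasi-likelihood test in 1 fit of all 30 libraries. Its standard error (SE) is approximate, computed as the absolute log2 ratio divided by the square root of the F statistic of that test. The adjusted p is the Benjamini-Hochberg value over 17564 genes, and a gene is called with an adjusted p below 0.05 and a log2 difference beyond 1.5. A member that was not called is not shown to be equal. Medians over members enter Gdf10 at its bound where a gate is at the floor of 3 counts per library and leave it out where both gates are. Comparisons that use the same population share its libraries. In sorted bulk samples, fewer cells of a type and less RNA per cell cannot be told apart. RLE scaling shifted the median gene of a library by up to 0.13 on the log2 scale and no scaling by up to 0.47, and RLE scaling reversed none of the called members and lost 1 call, that of Bmp7 between SMC and pericytes.

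PDGFRahi FB were compared with the other FB gates of their tissue to ask where the members differ between fibroblast subsets. In the small intestine 3 of 8 members were called against Fgfr2+ FB, all higher in PDGFRahi FB, where 2.52% of all genes tested were called and the 8 members had a median log2 difference of 2.06 against 0.01 over all genes. The log2 difference was 3.85 (SE 0.54, adjusted p = 3.66e-05) for Bmp3. For Bmp7 it was 3.26 (SE 0.48, adjusted p = 7.01e-05), or 4.0 without small intestinal Fgfr2+ FB replicate 1. Bmp5 had a log2 difference of 2.56 (SE 0.45, adjusted p = 6.83e-04), and the libraries of the gates did not overlap for any of these 3 members. Bmp2 was also above all Fgfr2+ libraries but missed the threshold, with a log2 difference of 2.58 (SE 0.84, adjusted p = 0.118). DESeq2, the fit with no filter and a fit of only these populations called Bmp2. Its level was 14.4, 22.0 and 56.0 CPM in the Fgfr2+ libraries, with replicate 3 the highest. Bmp4 overlapped with a log2 difference of -0.62 (SE 0.53, adjusted p = 0.712).

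Against CD34+ FB of the small intestine the same number of members, 3 of 8, were called, beside 3.22% of all genes. Over the 8 members the median log2 difference was 0.33, and over all genes it was 0.00. The log2 difference of Bmp7 was 6.15 (SE 0.55, adjusted p = 1.18e-08), that of Bmp3 was 6.0 (SE 0.60, adjusted p = 6.42e-08) and that of Bmp5 was 4.53 (SE 0.49, adjusted p = 2.39e-07), each higher in PDGFRahi FB with no overlap. Bmp1, Bmp4 and Gdf10 were lower in all PDGFRahi libraries than in all CD34+ libraries without being called, and for Gdf10, at 0 in PDGFRahi FB, CD34+ FB were at least 4.59-fold higher by the mean against a floor of 3 counts per library, or 2.60-fold without CD34+ FB replicate 2.

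In the colon 3 of 8 members were called between PDGFRahi and Fgfr2+ FB, beside 1.33% of all genes, and all 3 were higher in PDGFRahi FB. The 8 members had a median log2 difference of 1.06, beside -0.02 for all genes. Bmp3 had a log2 difference of 4.50 (SE 0.56, adjusted p = 1.27e-05), Bmp7 of 3.24 (SE 0.48, adjusted p = 1.32e-04) and Bmp5 of 1.96 (SE 0.44, adjusted p = 0.0146), each with no overlap. The Bmp5 call was lost without colonic Fgfr2+ FB replicates 1, 2 or 3 or colonic PDGFRahi FB replicate 2 (adjusted p between 0.0591 and 0.107). Bmp1 and Bmp6 were lower in all PDGFRahi libraries than in all Fgfr2+ libraries, with log2 differences of -1.0 (SE 0.44, adjusted p = 0.481) and -1.55 (SE 0.67, adjusted p = 0.457) that were not called. Bmp2 was higher in all PDGFRahi libraries and not called, with a log2 difference of 2.72 (SE 0.84, adjusted p = 0.140), while DESeq2, the fit with no filter and a fit of only these populations called it. Gdf10 was at least 16.0-fold higher in Fgfr2+ FB by the mean, although 1 of the Fgfr2+ libraries was itself at 0 (adjusted p = 0.249). This bound rested on Fgfr2+ FB replicate 3, without which it was 3.79-fold, and it was 24.1-fold without replicate 1.

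Against CD90+ FB 4 of 8 members were called, beside 1.42% of all genes, and Bmp2 joined the members higher in PDGFRahi FB. The median log2 difference of the 8 members was 1.41, against -0.06 over all genes. The log2 difference was 3.48 (SE 0.87, adjusted p = 0.0317) for Bmp2, and that call was lost without any 1 of the 6 libraries compared (adjusted p between 0.0693 and 0.175). The log2 differences of Bmp3, Bmp7 and Bmp5 were 4.24 (SE 0.55, adjusted p = 1.46e-05), 3.83 (SE 0.50, adjusted p = 1.34e-05) and 2.55 (SE 0.45, adjusted p = 8.91e-04). None of these 4 overlapped between the gates. Gdf10 was at least 16.3-fold higher in CD90+ FB by the mean, or 8.84-fold without CD90+ FB replicate 3, and was not called (adjusted p = 0.239). Replicate 1 of CD90+ FB held 1 count of Gdf10, which is below the floor.

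Against CD81+ FB 5 of 8 members were called, beside 3.94% of all genes, and this comparison held the 1 member called lower in PDGFRahi FB. Over the 8 members the median log2 difference was 2.03, and over all genes it was -0.08. The member called lower was Bmp1, with a log2 difference of -1.82 (SE 0.45, adjusted p = 0.0132), lost without CD81+ FB replicate 2 or colonic PDGFRahi FB replicates 1 or 2 (adjusted p between 0.0810 and 0.108). Bmp7, Bmp5 and Bmp3 were higher in PDGFRahi FB, with log2 differences of 5.36 (SE 0.53, adjusted p = 1.2e-07), 4.95 (SE 0.50, adjusted p = 1.38e-07) and 4.06 (SE 0.55, adjusted p = 1.30e-05). Without CD81+ FB replicate 1 these log2 differences were 6.21 for Bmp7, 6.14 for Bmp5 and 4.92 for Bmp3. Bmp2 had a log2 difference of 3.04 (SE 0.85, adjusted p = 0.0342), lost without any 1 of the 6 libraries (adjusted p between 0.0682 and 0.136). The count was 3 without CD81+ FB replicate 2 or without colonic PDGFRahi FB replicate 1 or 2. Bmp6 missed the call with a log2 difference of -2.21 (SE 0.68, adjusted p = 0.0631), and passed at -2.51 (adjusted p = 0.0454) without CD81+ FB replicate 3. Gdf10 was at least 48.6-fold higher in CD81+ FB, or 30.98-fold without CD81+ FB replicate 3 (adjusted p = 0.0640).

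Markers of other cell types differed between these gates as well. The 6 smooth muscle markers summed to 2252, 3739 and 2593 CPM in small intestinal PDGFRahi FB, led by Myh11, against 702, 876 and 518 CPM in Fgfr2+ FB and 136, 116 and 148 CPM in CD34+ FB. In the colon that sum was 1384, 1279 and 2324 CPM in PDGFRahi FB, led by Acta2, against 217, 223 and 448 CPM in Fgfr2+ FB, 119, 153 and 159.5 CPM in CD90+ FB and 124, 71.2 and 40.6 CPM in CD81+ FB. A sum of 3 markers of interstitial cells of Cajal, led by Etv1, was 476, 427 and 504 CPM in small intestinal and 229.8, 291 and 238 CPM in colonic PDGFRahi FB. That sum stood at 87.5, 129 and 127 CPM in Fgfr2+ FB and 29.2, 25.6 and 26.0 CPM in CD34+ FB of the small intestine, and in the colon at 124, 75.3 and 42.7 CPM in Fgfr2+ FB, 53.1, 60.5 and 59.8 CPM in CD90+ FB and 43.9, 3.78 and 17.2 CPM in CD81+ FB. The 7 pericyte markers summed to 1594, 2069 and 1011 CPM in small intestinal PDGFRahi FB, led by Kcnj8, against 2442, 2150.2 and 2160.1 CPM in Fgfr2+ FB and 4129, 4387 and 3737 CPM in CD34+ FB, both led by Rgs5. In colonic PDGFRahi FB they summed to 453, 368 and 456 CPM, against 622, 775 and 936 CPM in Fgfr2+ FB, 331, 384 and 396 CPM in CD90+ FB and 337, 252 and 197 CPM in CD81+ FB. Of the genes of these lists, Kit alone was at 0 over the libraries of a gate, CD81+ FB, and the part of these markers in the member differences was not tested.

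Mural populations were compared with PDGFRahi FB and with each other. The Cajal cell markers summed higher in pericytes than in PDGFRahi FB, to 1156, 584 and 742 CPM in the small intestine and 807, 900.3 and 686 CPM in the colon, led by Ano1, and to 16.2, 8.76 and 31.2 CPM in SMC. Their part in the differences with mural cells was not tested. Between small intestinal PDGFRahi FB and SMC, 4 of 8 members were called, beside 4.77% of all genes, all higher in PDGFRahi FB with no overlap. The 8 members had a median log2 difference of 2.49, beside 0.01 for all genes. The log2 differences were 5.85 (SE 0.60, adjusted p = 1.27e-07) for Bmp3, 4.52 (SE 0.51, adjusted p = 6.03e-07) for Bmp7, 3.50 (SE 0.72, adjusted p = 0.00196) for Bmp6 and 2.89 (SE 0.45, adjusted p = 6.86e-05) for Bmp5. Without SMC replicate 3 the Bmp3 log2 difference was 6.66. Bmp4 overlapped between these gates, with a log2 difference of 0.35 (SE 0.53, adjusted p = 0.840). Gdf10 was at least 12.6-fold higher by the mean in SMC, where replicate 1 was at 0, or 3.94-fold without SMC replicate 3, and was not called (adjusted p = 0.121).

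Small intestinal PDGFRahi FB exceeded pericytes in 5 of 8 members called, Bmp3 to Bmp7, beside 10.7% of all genes. The median log2 difference of the 7 members with counts was 6.04, against 0.00 over all genes. Bmp6 had a log2 difference of 7.24 (SE 0.89, adjusted p = 9.20e-07), or 8.59 without small intestinal pericyte replicate 3. For Bmp5, Bmp3 and Bmp7 the log2 differences were 6.31 (SE 0.53), 6.22 (SE 0.61) and 6.04 (SE 0.55). Bmp4 showed a log2 difference of 4.86 (SE 0.62, adjusted p = 1.91e-06), or 5.87 without pericyte replicate 2. No library of one gate overlapped with the other for these 5 members. Bmp2 overlapped, with a log2 difference of 0.58 (SE 0.79, adjusted p = 0.684) over all libraries and 3.82 (adjusted p = 5.28e-04) without pericyte replicate 1, the library that stood apart. Bmp1 did not overlap but stayed under the fold threshold, at 1.44 (SE 0.45, adjusted p = 0.0327), and was called without small intestinal pericyte replicate 1 or small intestinal PDGFRahi FB replicate 3 (adjusted p between 0.0272 and 0.0321). Without pericyte replicate 1 the count of members called was therefore 7.

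In the colon the same 5 members, Bmp3 to Bmp7, were called higher in PDGFRahi FB than in pericytes, beside 8.52% of all genes. Over the 7 members with counts the median log2 difference was 4.27, and over all genes it was -0.03. Bmp3 had a log2 difference of 5.90 (SE 0.60, adjusted p = 4.22e-08) and Bmp7 of 5.37 (SE 0.53, adjusted p = 2.93e-08). Bmp4 showed a log2 difference of 5.41 (SE 0.64, adjusted p = 4.60e-07), or 6.62 without colonic pericyte replicate 3. Bmp5 had a log2 difference of 4.27 (SE 0.48, adjusted p = 2.63e-07). The smallest of the 5 was that of Bmp6, 2.36 (SE 0.69, adjusted p = 0.0268), lost without colonic pericyte replicate 1 or colonic PDGFRahi FB replicates 2 or 3 (adjusted p between 0.0605 and 0.0964). In a fit of only these populations Bmp6 was not called and Bmp2 was. All 5 were free of overlap. Bmp2, at 2.52 (SE 0.83, adjusted p = 0.0543), and Bmp1, at 1.29 (SE 0.44, adjusted p = 0.0673), were not called. DESeq2 and both other filters called Bmp2, and Bmp1 was called at 2.06 (adjusted p = 0.00425) without colonic pericyte replicate 1.

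SMC and pericytes of the small intestine differed in 4 of 8 members, beside 10.2% of all genes, and all 4 were higher in SMC. The 8 members had a median log2 difference of 2.28, beside 0.00 for all genes. Bmp4 had a log2 difference of 4.51 (SE 0.61, adjusted p = 5.43e-06), or 5.52 without small intestinal pericyte replicate 2, and Bmp5 of 3.42 (SE 0.47, adjusted p = 6.24e-06). Bmp6 showed a log2 difference of 3.74 (SE 0.78, adjusted p = 0.00172), or 5.08 without small intestinal pericyte replicate 3. Its ranges overlapped, because SMC replicate 3 with 1.65 CPM lay below pericyte replicate 3 with 2.09 CPM. Bmp7 had a log2 difference of 1.51 (SE 0.46, adjusted p = 0.0310), lost without small intestinal pericyte replicates 1 or 2 or SMC replicate 3 (adjusted p between 0.0647 and 0.137). The Bmp7 call was also lost with RLE scaling and with DESeq2, where its log2 difference was under the threshold at 1.47 and 1.48, and in a fit of only these populations, which lost Bmp6 too. Bmp2 was not called, and its log2 difference of -1.51 (SE 0.81, adjusted p = 0.238) turned to 1.78 (adjusted p = 0.0911) without small intestinal pericyte replicate 1.

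Further comparisons asked how the members differ among the FB gates that are not PDGFRahi. Small intestinal Fgfr2+ FB exceeded CD34+ FB in 3 of 8 members, beside 1.21% of all genes. The median log2 difference of the 8 members was -0.25, against -0.03 over all genes. Bmp7 had a log2 difference of 2.89 (SE 0.48, adjusted p = 8.27e-04), or 2.15 without Fgfr2+ FB replicate 1. Bmp3 showed a log2 difference of 2.15 (SE 0.51, adjusted p = 0.0234) and lost its call without CD34+ FB replicates 1, 2 or 3 or small intestinal Fgfr2+ FB replicates 1 or 3 (adjusted p between 0.0793 and 0.127). Bmp5 differed by 1.96 (SE 0.44, adjusted p = 0.0151) and lost its call without CD34+ FB replicates 1, 2 or 3 or small intestinal Fgfr2+ FB replicate 1 (adjusted p between 0.0567 and 0.0987). The count was thus 1 without any of CD34+ FB replicates 1, 2 and 3 or without Fgfr2+ FB replicate 1, and 2 without Fgfr2+ FB replicate 3. Bmp1, Bmp2 and Bmp6 were lower in all Fgfr2+ libraries than in all CD34+ libraries, but none was called. Their log2 differences were -1.34, -1.79 and -1.70 (adjusted p = 0.176, 0.427 and 0.322). For Bmp2 the Fgfr2+ libraries stood at 14.4, 22.0 and 56.0 CPM, with replicate 3 the nearest to CD34+ FB.

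Colonic Fgfr2+ and CD90+ FB showed 0 of 8 members called by edgeR, beside 0% of all genes, with 0 members at an unadjusted p below 0.05 and 0 called by DESeq2. Over the 8 members the median log2 difference was 0.08, and over all genes it was -0.01. Bmp2, Bmp5 and Bmp7 had no overlap between these gates but were not called, with log2 differences of 0.76 (SE 0.79), 0.59 (SE 0.42) and 0.59 (SE 0.44). Against CD81+ FB, colonic Fgfr2+ FB were higher in 2 of 8 members, beside 0.939% of all genes. The 8 members had a median log2 difference of -0.06, beside -0.05 for all genes. Bmp5 had a log2 difference of 2.99 (SE 0.46, adjusted p = 4.31e-04), or 4.17 without CD81+ FB replicate 1. Bmp7 showed a log2 difference of 2.12 (SE 0.46, adjusted p = 0.0160), or 2.97 without CD81+ FB replicate 1, and lost its call without CD81+ FB replicates 2 or 3 or colonic Fgfr2+ FB replicate 1 (adjusted p between 0.0943 and 0.112), which brings the count to 1. Neither member overlapped between the gates, and a fit of only these populations called neither.

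CD90+ FB exceeded CD81+ FB in 1 of 8 members, beside 0.621% of all genes. The median log2 difference of the 8 members was -0.24, against -0.01 over all genes. The member called was Bmp5, with no overlap and a log2 difference of 2.40 (SE 0.45, adjusted p = 0.00641), or 3.57 without CD81+ FB replicate 1. Its call was lost without CD81+ FB replicates 2 or 3 (adjusted p between 0.0529 and 0.0566), which leaves 0 members called, as did a fit of only these populations. Bmp7 had a log2 difference of 1.53 (SE 0.45, adjusted p = 0.169) and was called at 2.37 (adjusted p = 0.00684) without CD81+ FB replicate 1, which brings the count to 2.

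Populations of the same name were compared between the tissues. The PDGFRahi gates were ESAM-1-PDGFRahiCD34- in the small intestine and ESAM-1-PDPN+CD34- in the colon, so gate and tissue cannot be told apart. Between small intestinal and colonic PDGFRahi FB 0 of 8 members were called by edgeR, beside 0.957% of all genes, with 2 members at an unadjusted p below 0.05 and 0 called by DESeq2. Over the 7 members with counts the median log2 difference was 0.46, and over all genes it was 0.02. The 2 members below that p were Bmp4, lower in all small intestinal libraries with a log2 difference of -1.38 (SE 0.54, adjusted p = 0.467), and Bmp1, with overlapping ranges and 0.96 (SE 0.44, adjusted p = 0.682). Bmp2, Bmp3 and Bmp6 did not overlap between the tissues either, with log2 differences of -1.49 (SE 0.80), 0.64 (SE 0.49) and 1.07 (SE 0.66). Bmp5 was nearest to 0, with a log2 difference of -0.01 (SE 0.42).

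Fgfr2+ FB of the small intestine and colon also had 0 of 8 members called by edgeR, beside 1.45% of all genes, with 2 at an unadjusted p below 0.05 and 1 called by DESeq2. The 8 members had a median log2 difference of -0.70, beside -0.02 for all genes. Bmp6 was lower in all small intestinal libraries, with a log2 difference of -2.04 (SE 0.68, adjusted p = 0.151), and DESeq2 called it at -2.02 (adjusted p = 0.0425). Bmp3 was higher in all small intestinal libraries, with a log2 difference of 1.29 (SE 0.50, adjusted p = 0.243). These gates differ in CD34, as their definitions state.

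Pericytes had 2 of 8 members called lower in the small intestine than in the colon, beside 5.69% of all genes. The median log2 difference of the 7 members with counts was -0.21, against 0.00 over all genes. Bmp6 had a log2 difference of -3.82 (SE 0.79, adjusted p = 0.00488), or -5.16 without small intestinal pericyte replicate 3. Bmp5 had a log2 difference of -2.05 (SE 0.44, adjusted p = 0.00710), and neither member overlapped. A fit of only these populations called neither. The smooth muscle markers, led by Myh11, summed to 4574, 3103 and 3282 CPM in small intestinal against 10388, 11466 and 11415 CPM in colonic pericytes, none was at 0, and their part in these differences was not tested. Bmp2 had a log2 difference of 0.46 (SE 0.79, adjusted p = 0.778) over all libraries, and without small intestinal pericyte replicate 1 it turned to -2.80 (adjusted p = 0.0189), lower in the small intestine and called. Bmp1 was called at 1.58 (adjusted p = 0.0433) without colonic pericyte replicate 1, against 0.81 (SE 0.44, adjusted p = 0.262) with all libraries, so that the count was 3 without either library.

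Whether the step from Fgfr2+ to PDGFRahi FB differed between the tissues was tested as an interaction. Both populations were gated differently in the tissues, so gate and tissue cannot be told apart here either. It called 0 of 8 members by edgeR, beside 0.66% of all genes, with 2 members at an unadjusted p below 0.05 and 1 called by DESeq2. Bmp6 was higher in all PDGFRahi than in all Fgfr2+ libraries in the small intestine and lower in the colon, with a difference between the tissues of 3.12 (SE 0.94, adjusted p = 0.179) on the log2 scale in edgeR and 3.04 (adjusted p = 0.0491) in DESeq2. For Bmp1 that difference was 1.76 (SE 0.62, adjusted p = 0.336). Bmp7, Bmp5 and Bmp3 had interaction values of 0.02 (SE 0.63), 0.61 (SE 0.60) and -0.65 (SE 0.69) on the log2 scale. Without small intestinal Fgfr2+ FB replicate 1, the small intestinal log2 step of Bmp7 was 4.0 in place of 3.26, beside 3.24 in the colon. Over all 10 populations together, the test for any difference called 8 of 8 members by adjusted p alone, beside 26.4% of all genes. The adjusted p was between 5.77e-13 for Bmp7 and 0.00951 for Gdf10.

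To compare members with each other, levels were divided by the effective transcript length. The sum of the 7 TGF-beta type members, without Bmp1, was 2533, 2554 and 2676 CPM per kilobase in colonic PDGFRahi FB and 1794, 1903 and 1566 CPM per kilobase in small intestinal PDGFRahi FB. The colonic libraries were all above the small intestinal ones. Means of that sum were 1547 ± 206 CPM per kilobase (SD, n = 3) in colonic Fgfr2+ FB, 1468 ± 138 in CD90+ FB, 1009 ± 407 in small intestinal Fgfr2+ FB, 877 ± 375 in CD81+ FB and 809.9 ± 26.1 in CD34+ FB. In SMC the mean was 553 ± 35.9 CPM per kilobase, and the pericytes were lowest with 109 ± 50.2 in the colon and 78.7 ± 41.0 in the small intestine.

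Bmp4 made up most of the summed level per kilobase in SMC and in every FB gate except small intestinal PDGFRahi FB. Outside the PDGFRahi and pericyte gates its share was between 75.1 ± 1.06% (SD, n = 3) in CD81+ FB and 82.4 ± 0.833% in CD34+ FB. Its share was 55.4, 51.8 and 59.1% in the colonic and 32.9, 32.7 and 25.9% in the small intestinal PDGFRahi libraries. Bmp5 took 33.2, 34.8 and 46.5% of the sum in small intestinal PDGFRahi FB and 26.4, 28.5 and 22.7% in colonic PDGFRahi FB. Per kilobase, Bmp5 was thus above Bmp4 in each small intestinal PDGFRahi library and below it in each colonic one. The share of Bmp7 was 14.8 ± 2.94% and 7.45 ± 0.309% in small intestinal and colonic PDGFRahi FB, and that of Bmp3 was 9.49 ± 0.663% and 4.1 ± 0.673%. Bmp6 held its largest share, 17.4 ± 2.12%, in CD81+ FB. In small intestinal pericytes Bmp2 was 82.2, 2.01 and 14.6% of the sum, with replicate 1 again the high library.

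**Figure D2:**
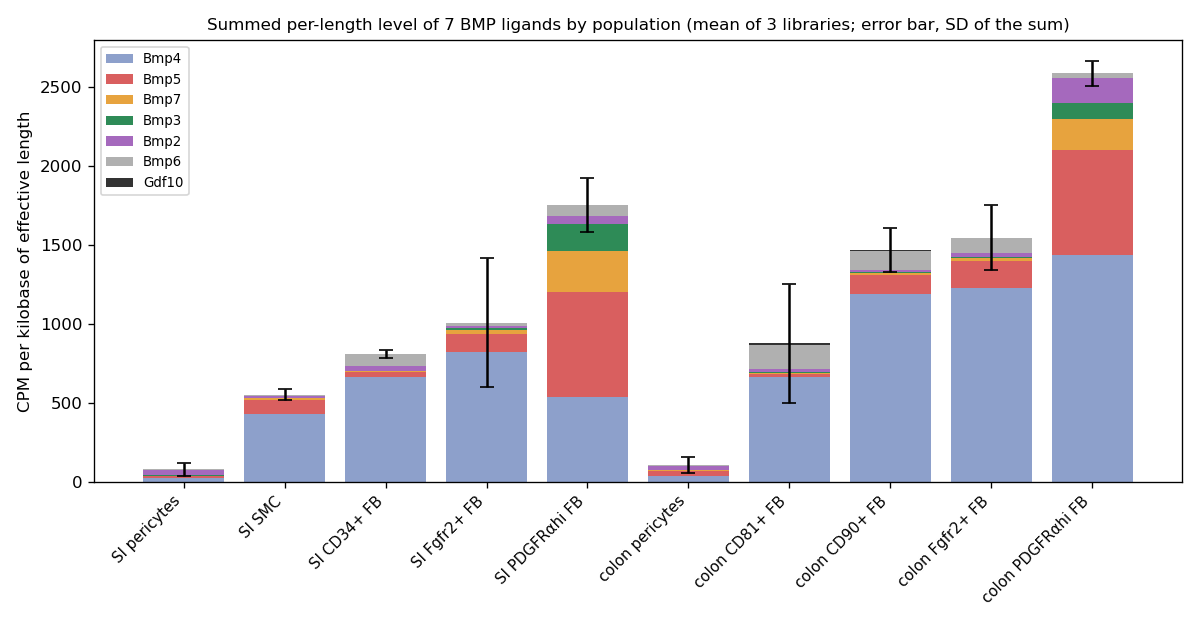
Summed level of the 7 TGF-beta type members in CPM per kilobase of effective length by population, as the mean of 3 libraries, with the part of each member and error bars for the SD of the sum. Bmp4 was the largest part in SMC and in all FB except small intestinal PDGFRahi FB, where Bmp5 was the largest part.

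As a description over the 10 population means of log2 CPM, the members fell into different patterns. Pearson's r was 0.945 between Bmp3 and Bmp7, 0.937 between Bmp5 and Bmp7, 0.817 between Bmp3 and Bmp5, and 0.840 between Bmp4 and Bmp6. Bmp1 had an r of 0.744 with Gdf10, of 0.718 with Bmp6 and of 0.714 with Bmp4, and the lowest r of Gdf10 was -0.435 with Bmp7. Each r rests on the same 30 libraries and 10 points.

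Among 12580 genes that reached a mean of 10 CPM in at least 1 population, the 3 with the highest r to Bmp5 were Col24a1 (0.970), Syt13 (0.955) and Foxl1 (0.943). For Bmp7 they were Bean1 (0.961), Tpm4 (0.945) and Minos1 (0.945), and for Bmp3 they were F2rl3 (0.980), Alcam (0.974) and Tbx4 (0.959). The pattern of Bmp4 was closest to Robo1 (0.992), Fam174b (0.985) and Snx7 (0.985), and that of Bmp6 to Fam57a (0.982), Kif3b (0.978) and Cpq (0.977). Bmp2 was most like Pkm (0.949), Whrn (0.906) and Clta (0.891), Bmp1 most like Asap3 (0.964), Tpst1 (0.960) and Tm7sf3 (0.958), and Gdf10 most like Sat1 (0.987), Rhoq (0.960) and Sfrp4 (0.937). The r values describe 10 points each and carry no test.

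The other genes of the pathway were counted in PDGFRahi against Fgfr2+ FB, the comparison made in both tissues. Of 14 other BMP and GDF ligands 6 were tested, and 1 was called higher in small intestinal PDGFRahi FB, with a median log2 difference of 1.28, or 0.41 with genes at the floor set to their bound, against 0.01 over all genes tested. This was Gdf6, at 10.8, 9.08 and 10.9 CPM in PDGFRahi FB and 0.139, 0 and 0 CPM in Fgfr2+ FB, with an adjusted p of 0.0339, a call lost without any 1 of the 6 libraries (adjusted p between 0.0627 and 0.155). In the colon 0 of the 6 were called by edgeR, with 1 at an unadjusted p below 0.05 and 1 called by DESeq2, and a median log2 difference of 0.71, or -0.71 with genes at the floor set to their bound, against -0.02 over all genes tested. Gdf6 was at 0 in all colonic PDGFRahi libraries and at 0, 0 and 11.4 CPM in colonic Fgfr2+ FB, and its interaction was called (adjusted p = 0.00762) but not without colonic Fgfr2+ FB replicate 3 (adjusted p = 1.0).

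Of 11 BMP receptors and co-receptors, 0 were called by edgeR in either tissue. In the small intestine 3 had an unadjusted p below 0.05 and DESeq2 called 1, and the receptors had a median log2 difference of 0.36 against 0.01 over all genes tested. In the colon 0 had an unadjusted p below 0.05 and DESeq2 called 0, and the receptors had a median log2 difference of -0.50 against -0.02 over all genes tested. Of the 4 SMADs that carry BMP signals, Smad1 was called lower in small intestinal PDGFRahi FB, at 32.0, 36.3 and 8.38 CPM against 171, 60.8 and 143 CPM. Its log2 difference was -2.29 (SE 0.64, adjusted p = 0.04999), lost without small intestinal Fgfr2+ FB replicates 1 or 3 or small intestinal PDGFRahi FB replicates 1, 2 or 3 (adjusted p between 0.0877 and 0.251), and the list had a median log2 difference of -0.30 against 0.01 over all genes tested. In the colon edgeR called 0 of 4 SMADs, 1 had an unadjusted p below 0.05 and DESeq2 called 0, with a median log2 difference of -0.26 against -0.02 over all genes tested.

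Target and feedback genes of the pathway include the Id genes and the inhibitory SMADs. In the small intestine edgeR called 0 of 8, 2 had an unadjusted p below 0.05 and DESeq2 called 2, with a median log2 difference of -0.79 against 0.01 over all genes tested. In the colon 1 of 8 was called lower in PDGFRahi FB, with a median log2 difference of -0.13 against -0.02 over all genes tested. This was Id4, at 0.368, 0.128 and 1.09 CPM in PDGFRahi FB and 19.3, 17.4 and 12.8 CPM in Fgfr2+ FB. Its log2 difference was -4.95 (SE 1.2, adjusted p = 0.0278). Without colonic PDGFRahi FB replicate 3 that gate was at the floor of 3 counts per library, so no size is given. The Id4 call was lost without colonic Fgfr2+ FB replicates 1 or 2 or colonic PDGFRahi FB replicates 1, 2 or 3 (adjusted p between 0.0600 and 0.183).

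Secreted antagonists differed in both directions beside the ligands. Of 14 antagonists 12 were tested, and in the small intestine 3 were called higher in PDGFRahi FB than in Fgfr2+ FB, with a median log2 difference of 0.32, or -0.03 with genes at the floor set to their bound, against 0.01 over all genes tested. Grem1, which encodes gremlin, stood at 1.34, 1.92 and 3.22 CPM in PDGFRahi FB and 37.6, 88.1 and 61.2 CPM in Fgfr2+ FB, and at 1252, 999 and 885 CPM in CD34+ FB. No PDGFRahi library reached the others, and the log2 difference to Fgfr2+ FB was -4.84 (SE 0.80, adjusted p = 3.04e-04). Chrd, which encodes chordin, was 112, 131 and 40.1 CPM in PDGFRahi FB and 2.58, 0.0902 and 3.46 CPM in Fgfr2+ FB, a log2 difference of 5.59 (SE 1.12, adjusted p = 0.00290), or 4.98 without Fgfr2+ FB replicate 2. Nbl1 was 933, 1295 and 262 CPM in PDGFRahi FB and 221, 161 and 64.6 CPM in Fgfr2+ FB, a log2 difference of 2.48 (SE 0.63, adjusted p = 0.0248) that was lost without small intestinal Fgfr2+ FB replicates 2 or 3 or small intestinal PDGFRahi FB replicates 1 or 2 (adjusted p between 0.0769 and 0.170). Chrdl1 was near the floor in both gates, with 0, 1.69 and 0.574 CPM in PDGFRahi FB and 0.0697, 0 and 0 CPM in Fgfr2+ FB (adjusted p = 0.0495), a call lost without small intestinal Fgfr2+ FB replicates 1, 2 or 3 or small intestinal PDGFRahi FB replicates 2 or 3 (adjusted p between 0.0701 and 0.452).

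In the colon 2 of 12 antagonists were called higher and 1 lower in PDGFRahi FB than in Fgfr2+ FB, with a median log2 difference of -0.69, or -0.67 with genes at the floor set to their bound, against -0.02 over all genes tested. Grem1 was 25.1, 3.70 and 10.3 CPM in PDGFRahi FB, 155, 388 and 516 CPM in Fgfr2+ FB and 2198, 1720.2 and 2014 CPM in CD81+ FB. Its log2 difference to Fgfr2+ FB was -4.76 (SE 0.78, adjusted p = 4.68e-04), or -5.65 without colonic PDGFRahi FB replicate 1, with no overlap. Twsg1, which encodes a chordin partner, was 1648, 1691 and 2504 CPM in PDGFRahi FB and 515, 499.9 and 672 CPM in Fgfr2+ FB, a log2 difference of 1.79 (SE 0.28, adjusted p = 2.45e-04). Fst, which encodes follistatin, was 16.5, 15.8 and 7.87 CPM in PDGFRahi FB and 0, 0 and 0.222 CPM in Fgfr2+ FB (adjusted p = 0.0340), a call lost without colonic Fgfr2+ FB replicates 1 or 2 or colonic PDGFRahi FB replicates 1, 2 or 3 (adjusted p between 0.0661 and 0.182). Chrd was 11.4, 25.4 and 18.6 CPM in PDGFRahi FB and 43.6, 25.0 and 26.3 CPM in Fgfr2+ FB, with overlap. The interaction of tissue and gate was called for Chrd, with a log2 value of 6.36 (SE 1.41, adjusted p = 0.0264), or 5.75 without small intestinal Fgfr2+ FB replicate 2, and lost without small intestinal Fgfr2+ FB replicates 1 or 2, small intestinal PDGFRahi FB replicates 1 or 2, colonic Fgfr2+ FB replicate 1 or colonic PDGFRahi FB replicates 1, 2 or 3 (adjusted p between 0.0550 and 0.104).

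**Figure D3:**
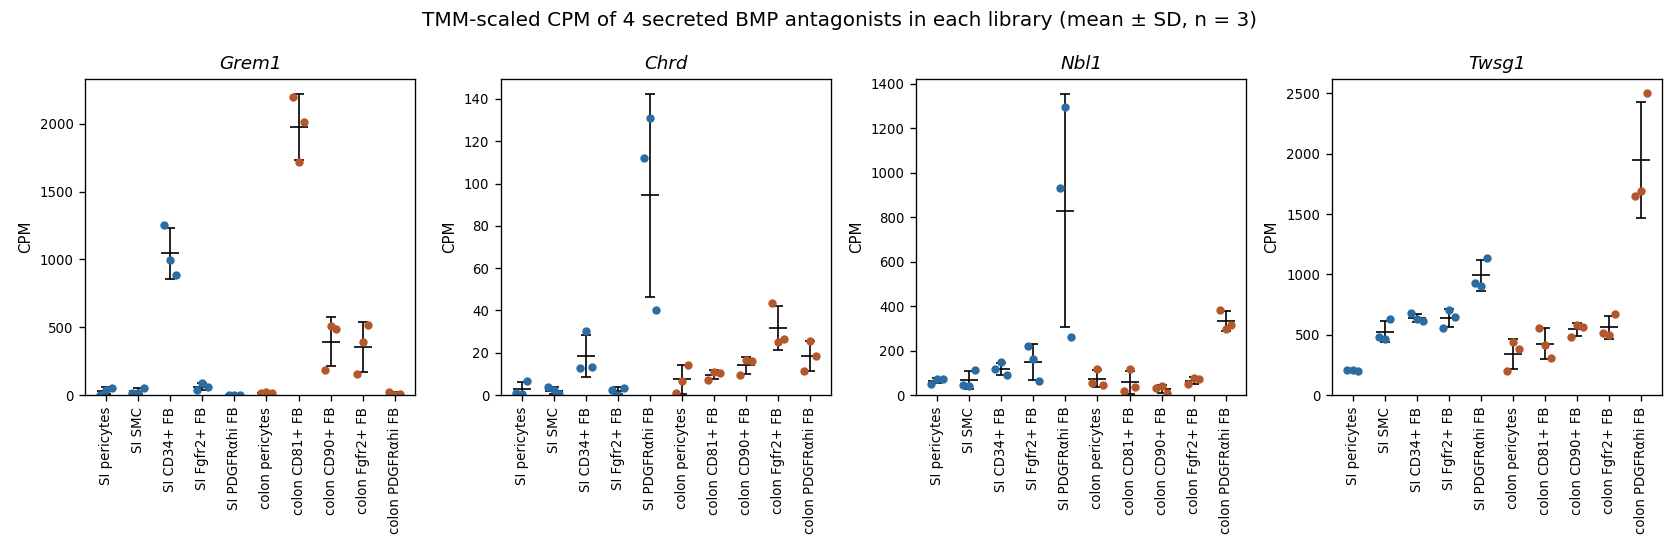
Level of the antagonists Grem1, Chrd, Nbl1 and Twsg1 in CPM on a linear axis from 0, by sorted population, with 1 point per library and the mean and SD of 3 libraries. Grem1 was lowest in small intestinal PDGFRahi FB among the FB of that tissue and highest in CD81+ FB of the colon.

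Proteases that process BMP precursors or antagonists were counted last. Of 4 proprotein convertases, which cleave BMP precursors, 1 was called higher and 1 lower in small intestinal PDGFRahi FB than in Fgfr2+ FB, with a median log2 difference of 0.06 against 0.01 over all genes tested. Pcsk6 was 550.3, 591 and 588 CPM in PDGFRahi FB and 80.5, 47.9 and 21.1 CPM in Fgfr2+ FB, a log2 difference of 3.52 (SE 0.63, adjusted p = 8.41e-04). Pcsk5 was 77.1, 87.4 and 71.9 CPM in PDGFRahi FB and 379, 294 and 216 CPM in Fgfr2+ FB, a log2 difference of -1.91 (SE 0.52, adjusted p = 0.0380), lost without small intestinal Fgfr2+ FB replicates 1 or 2 or small intestinal PDGFRahi FB replicates 1, 2 or 3 (adjusted p between 0.0798 and 0.159). In the colon edgeR called 0 of 4 convertases, 2 had an unadjusted p below 0.05 and DESeq2 called 0, with a median log2 difference of 0.24 against -0.02 over all genes tested. Of 4 relatives and enhancers of Bmp1, Tll2, a tolloid-like astacin protease, was called higher in PDGFRahi FB of both tissues. Tll2 was 49.3, 27.1 and 57.0 CPM in small intestinal PDGFRahi FB and 0.0697, 0.361 and 0 CPM in Fgfr2+ FB, a log2 difference of 7.95 (SE 1.63, adjusted p = 0.00557). Without Fgfr2+ FB replicate 2 that gate was at the floor of 3 counts per library, so no size is given. The list had a median log2 difference of 0.69 against 0.01 over all genes tested. In the colon Tll2 was 3.92, 1.53 and 0.679 CPM in PDGFRahi FB and 0 in Fgfr2+ FB, higher by at least 6.55-fold, or 3.54-fold without PDGFRahi FB replicate 1, with an adjusted p of 0.0393, lost without any 1 of the 6 libraries (adjusted p between 0.0563 and 0.169), and the list had a median log2 difference of -0.38 against -0.02 over all genes tested.

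Upstream sequences from RefSeq on GRCm38.p6 were held for 4 of the 8 members, Bmp4, Bmp5, Bmp6 and Gdf10, and not for Bmp1, Bmp2, Bmp3 and Bmp7. The 250 bases before the RefSeq start of Bmp5 and Bmp4 are shown because these were the members with the highest levels and their patterns over the populations differed. The window of Bmp5 is chr9:75775115-75775364 on the plus strand, and that of Bmp4 is chr14:46390670-46390919 on the minus strand. The last base of the Bmp5 window is the first base of the gene as GENCODE places it. Both were searched for GGGCGG on either strand, which reads CCGCCC on the reverse strand, and capitals mark a match. The motif was present in 10756 of 32851 upstream windows of 250 bases (32.7%), whose median GC content was 52.4%. The Bmp4 window held 1 match with a GC content of 63.2%, and the Bmp5 window held 0 matches with a GC content of 42.8%. The windows of Bmp6 and Gdf10, which are not shown, held 1 and 4 matches with GC contents of 68.8% and 78.8%. The Bmp6 window, chr13:38345466-38345715, lies within the Bmp6 gene as GENCODE places it. A match is a description of the letters in the window.
Bmp5: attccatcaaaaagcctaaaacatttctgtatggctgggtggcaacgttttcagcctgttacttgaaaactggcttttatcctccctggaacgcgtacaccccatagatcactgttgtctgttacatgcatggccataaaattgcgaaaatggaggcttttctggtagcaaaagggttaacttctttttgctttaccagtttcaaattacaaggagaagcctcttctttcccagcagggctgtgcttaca
Bmp4: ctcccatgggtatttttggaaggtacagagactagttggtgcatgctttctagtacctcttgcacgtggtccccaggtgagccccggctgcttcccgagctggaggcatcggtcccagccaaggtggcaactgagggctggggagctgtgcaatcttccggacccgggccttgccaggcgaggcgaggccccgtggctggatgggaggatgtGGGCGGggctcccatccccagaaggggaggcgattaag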

How the data were processed

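RNA from 30 sorted stromal libraries was sequenced, and the authors trimmed reads with Trim Galore 0.4.0, checked them with FastQC 0.11.2 and quantified transcripts with kallisto 0.42.5. The authors deposited estimated counts (est_counts, expected counts, not normalized) per transcript. They also deposited TPM, which the authors' tool scaled by effective length and library total. Estimated counts of 97204 of 98492 transcripts were summed to 32386 symbols of the GENCODE M21 annotation of GRCm38 and rounded. The low-count filter kept genes that reached 6 counts in 3 or more libraries, and these were tested in R 4.3.3 with edgeR 4.0.16 (TMM scaling, quasi-likelihood test, 1 mean per population, Benjamini-Hochberg adjustment over 17564 genes). Levels per kilobase used the effective lengths deposited with the counts. Matched genes held between 97.83% and 99.21% of the counts of a library. The genes named are the 8 members, the called genes of the pathway lists, and for each member the 3 genes with the highest Pearson correlation over the 10 populations. The members and lists were chosen with earlier results of these data known. The alternatives were DESeq2 1.42.0, RLE scaling, plain CPM, counts scaled from TPM and length, no filter, a stricter filter (10 counts throughout all libraries of 1 population), a log2 threshold of 1 or none, a fit of the compared populations alone, a replicate block, and each library left out in turn. The calls were also tested on simulated data. Floors cover counting error only. 1 gene of the tested lists is not reported here.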

Additional observations from a re-analysis of the deposited data

Results flagged for a closer look

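Members were flagged where the difference between PDGFRahi and Fgfr2+ FB pointed in opposite directions between small intestine and colon in all libraries. Members and list genes were also flagged where the interaction was called, which gave 4 genes together. The direction rule was not applied to the list genes, and the share of all genes that meet it is not given here. Bmp1 was higher in all PDGFRahi libraries than in all Fgfr2+ libraries of the small intestine and lower in all of the colon, with log2 differences of 0.76 and -1.0, and the difference between the tissues was 1.76 on the log2 scale (SE 0.62, adjusted p = 0.336, edgeR's interaction test, not called). Bmp6 showed the same split, with log2 differences of 1.56 in the small intestine against -1.55 for the colon, and a difference between the tissues of 3.12 (SE 0.94, adjusted p = 0.179, not called). Chrd, which encodes the antagonist chordin, had a log2 difference of 5.59 in the small intestine against -0.78 for the colon, and the interaction of 6.36 was called (SE 1.41, adjusted p = 0.0264). The Chrd call was lost without small intestinal Fgfr2+ FB replicates 1 or 2, small intestinal PDGFRahi FB replicates 1 or 2, colonic Fgfr2+ FB replicate 1 or colonic PDGFRahi FB replicates 1, 2 or 3 (adjusted p between 0.0550 and 0.104). Gdf6, another BMP ligand, had the interaction called (adjusted p = 0.00762), with no size given because gates were at the floor, and the call was lost without colonic Fgfr2+ FB replicate 3 (adjusted p = 1.0), the library of that gate with counts of it.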

How the results depend on the processing

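The counts of members called kept within 1.5 times their value in every comparison under RLE scaling, counts scaled from TPM, both filters, both other fold thresholds and the replicate block. With only the compared populations in the fit, the counts were 5 in place of 3 for colonic PDGFRahi against Fgfr2+ FB, 2 in place of 4 for SMC against pericytes, 0 in place of 2 for colonic Fgfr2+ against CD81+ FB, 0 in place of 1 for CD90+ against CD81+ FB and 0 in place of 2 for pericytes between the tissues. The same fit called 1 member in place of 0 in PDGFRahi FB between the tissues, in Fgfr2+ FB between the tissues and in the interaction. That fit has fewer libraries to estimate the spread. With DESeq2 the counts were 2 in place of 1 for CD90+ against CD81+ FB, and 1 in place of 0 for Fgfr2+ FB between the tissues and for the interaction, and the cause was not tested.

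Leaving out 1 library at a time gave between 3 and 5 members for colonic PDGFRahi against CD81+ FB, between 1 and 3 for small intestinal Fgfr2+ against CD34+ FB, between 1 and 2 for colonic Fgfr2+ against CD81+ FB and between 0 and 2 for CD90+ against CD81+ FB. A gate left with fewer libraries shares the spread of the whole fit. The direction of 1 member reversed with a call: Bmp2 between pericytes of the tissues went from 0.46 to -2.80 on the log2 scale without small intestinal pericyte replicate 1, in a range of -2.80 to 1.03 over the libraries left out, and the cause was not tested. A further 9 member differences, not called with or without the library, turned by more than 1.5-fold, and for Bmp2 in SMC against pericytes the log2 difference of -1.51 turned to 1.78 without the same library (adjusted p = 0.0911). Of the 44 member calls over the comparisons, leaving out 1 library of those compared kept 225 of 264, lost 39 and gained 8. DESeq2 kept 43, lost 1 and gained 10, and the fit of the compared populations alone kept 36, lost 8 and gained 12. RLE scaling lost Bmp7 in SMC against pericytes, as did DESeq2. No filter gained 7, and the stricter filter gained Bmp2 in colonic PDGFRahi FB against pericytes. Counts scaled from TPM and both other fold thresholds gained Bmp1 in small intestinal PDGFRahi FB against pericytes. In colonic PDGFRahi FB against pericytes the fit of the compared populations lost Bmp6 and gained Bmp2. DESeq2 and no filter gained Gdf10 in small intestinal PDGFRahi FB against SMC and in SMC against pericytes, and Bmp6 and Gdf10 in colonic PDGFRahi against CD81+ FB. Of the calls of other genes of the lists, the replicate block kept 96 and lost 11, counts scaled from TPM kept 99 and lost 8, the fit of the compared populations kept 72 and lost 28, and leaving out 1 library kept 468 and lost 186. Levels in the highest population moved by more than their spread without scaling factors for Bmp2 (572 CPM), Bmp4 (2382 CPM) and Bmp5 (2711 CPM).

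The replicate numbers of the labels were not shown to pair libraries: in a pairing check 1 of 135 pairs of libraries with the same number and 2 of 270 with different numbers correlated beyond 0.1. With the numbers as a block, 44 of 44 member calls were kept and 1 was gained, Gdf10 in colonic PDGFRahi against CD81+ FB (adjusted p = 0.0183). Gdf10 was at 0 in 16 libraries, and each test rests on 3 libraries per population.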
